A study of Homo sapiens with 6 samples.

Results

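In ribosome profiling of HEK293 cells, 9 enzymes of the cholesterol synthesis pathway were followed: HMGCS1, MVD, IDI1, FDPS, FDFT1, SQLE, LSS, CYP51A1 and DHCR7. They were picked out of the tables by gene symbol. Of the 9 genes, 8 have a row among the 8121 genes of the translational efficiency table, and all 9 are among the 9570 transcripts of the occupancy table. FDFT1 has no row in the efficiency table, so its efficiency was not analysed here.

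HEK293 is an established human embryonic kidney cell line, and every sample was treated with control siRNA. The study sequenced 3 libraries of ribosome-protected fragments (RPFs, the pieces of mRNA that a ribosome shields from RNase) and 3 libraries of total RNA, numbered 1 to 3 in both kinds. There is 1 condition, so the comparisons below are between genes and along mRNAs. Plates of cells were treated with cycloheximide before lysis, and its effect on the position of reads was not tested. The lysate was split for both kinds of library, and the methods state that this was done in triplicate. Neither they nor the labels say whether the cultures were grown independently, and the p-values then measure only the spread between these samples, which may be technical.

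Cholesterol is built from acetyl-CoA. HMGCS1 makes the HMG-CoA from which mevalonate is formed, MVD and IDI1 make and interconvert the isoprene units, and FDPS joins these into farnesyl diphosphate. FDFT1 joins farnesyl diphosphates into squalene, SQLE and LSS close squalene into the first sterol, and CYP51A1 and DHCR7 act on the sterol ring on the way to cholesterol. The pathway is best known for feedback through sterol-sensing SREBP transcription factors, which act on transcription of most of its genes.

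In the GENCODE 44 annotation on GRCh37, HMGCS1 lies at chr5:43287572-43313614, MVD at chr16:88718343-88729569, IDI1 at chr10:1085092-1095059, LSS at chr21:47608055-47648738, CYP51A1 at chr7:91714301-91764117 and DHCR7 at chr11:71139239-71163914, all on the minus strand. FDPS lies at chr1:155278539-155290457 on the plus strand. FDFT1 and SQLE are described without positions or bases. The occupancy table gives 1 transcript a gene, and in 5 of the 9 genes its CDS was shorter than the longest one annotated. The CDS had 249 codons against 420 in FDPS, 354 against 477 in FDFT1, 405 against 510 in CYP51A1, 722 against 733 in LSS and 476 against 493 in DHCR7.

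Start codons are shown for the 3 genes in which the start codon of the table held 5 reads (IDI1) or 0 (FDPS and CYP51A1). Each line gives 30 bases of the mRNA from 5′ to 3′, with the ATG in capitals.
IDI1, codon 1 of the table: attggccgggcgATGtggcgtggactggcg
IDI1, codon 58 of the table: cattttgtaatgATGcctgaaataaacact
FDPS, codon 1 of the table: gcagatgacatcATGgattcatcccttacc
CYP51A1, codon 1 of the table: tttagttttaccATGgtaggcaagacattt
These stretches are at chr10:1094926-1094955 and chr10:1090063-1090092 (minus strand), chr1:155287753-155287782 (plus strand) and chr7:91758329-91758358 (minus strand). The second IDI1 ATG is the start of an annotated isoform of 228 codons, and the ATG just before it, codon 57, starts another of 229 codons.

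Translational efficiency (TE) is the authors' ratio of RPFs to total RNA, given for each replicate number. Along the pathway TE differed 15.4-fold between the highest enzyme, HMGCS1, and the lowest, MVD. Within replicates the ratio lay between 14.4 and 16.8 (SD 1.24, n = 3). Of the 8 enzymes, 6 lay above the median of all values, 0.383, and 2 lay below it. All 8 passed the limma test against that median, but so did 89.3% of all genes (44.7% higher and 44.6% lower), so passing it sets no gene apart.

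HMGCS1, the HMG-CoA synthase of the cytosol, had TE values of 2.91, 2.66 and 2.79 in replicates 1 to 3. The mean was 2.79 ± 0.124 (SD, n = 3), higher than in 94.6% of genes. Every replicate lay far above the median of the table, with a log2 difference of 2.83 ± 0.05 (SE, limma on log2(value + 0.01), Benjamini-Hochberg adjusted p = 1.55e-06).

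MVD, the decarboxylase that makes isopentenyl diphosphate, had the lowest values, 0.201, 0.177 and 0.166. The mean was 0.181 ± 0.0181 (SD, n = 3), at percentile 22.1 of all genes. All 3 replicates lay below the median (log2 difference −1.04 ± 0.07 SE, limma adjusted p = 6.41e-05).

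IDI1, the isomerase that acts on the product of MVD, had values of 2.62, 2.41 and 2.62, with a mean of 2.55 ± 0.121 (SD, n = 3). Its log2 difference was 2.70 ± 0.05 (SE, limma adjusted p = 1.66e-06). These neighbours in the pathway thus lay far apart in TE, and their replicates did not overlap.

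FDPS, the farnesyl diphosphate synthase, had values of 0.210, 0.195 and 0.181, with a mean of 0.195 ± 0.0144 (SD, n = 3). All were below the median (log2 difference −0.94 ± 0.06 SE, limma adjusted p = 5.70e-05). FDPS exceeded MVD within each of the 3 replicates, but the ranges of the 2 genes overlapped.

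SQLE, the squalene epoxidase, had values of 0.795, 0.727 and 0.697 (mean 0.740 ± 0.0502, SD, n = 3). LSS, the lanosterol synthase, had values of 1.00, 1.29 and 1.07 (mean 1.12 ± 0.151, SD, n = 3), the widest relative spread of the 8 genes. CYP51A1, the sterol demethylase, had values of 1.05, 0.977 and 1.01 (mean 1.01 ± 0.0377, SD, n = 3). LSS was above CYP51A1 in 2 of 3 replicates and the ranges overlapped, so their order is not settled.

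DHCR7, a late reductase of the pathway, had values of 0.503, 0.466 and 0.480 (mean 0.483 ± 0.0189, SD, n = 3). It was the closest of the 8 to the median, with a log2 difference of 0.33 ± 0.05 (SE, limma adjusted p = 0.00221). The log2 differences of SQLE, LSS and CYP51A1 were 0.93, 1.52 and 1.38, with limma adjusted p-values of 5.50e-05, 3.31e-05 and 8.04e-06.

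**Figure D1:**
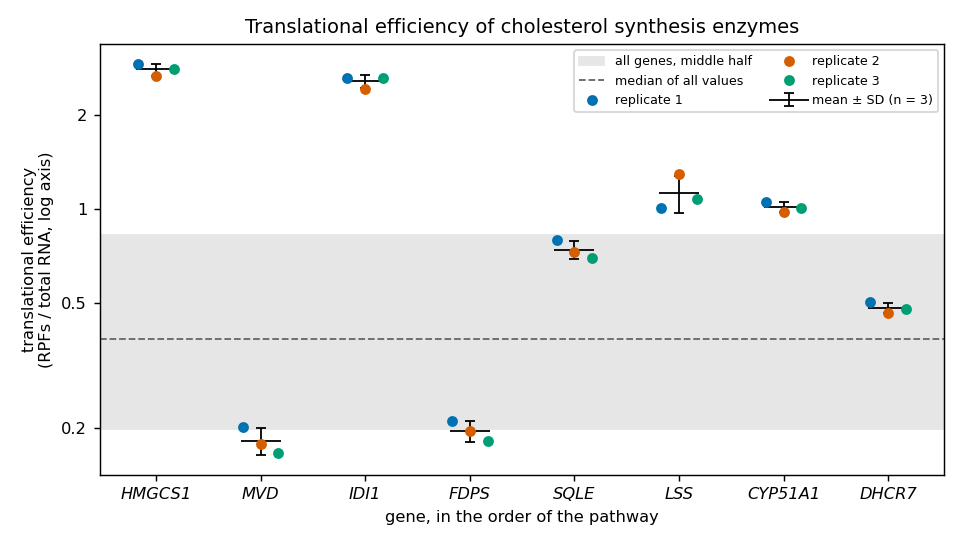
TE of 8 cholesterol synthesis enzymes in pathway order on a log axis, with 1 coloured point a replicate and black marks for mean ± SD (n = 3); the grey band spans the quartiles of all genes (0.198 to 0.825) and the dashed line is the median of all values. HMGCS1 and IDI1 lie above the band near 2.79 and 2.55, MVD and FDPS lie at its lower edge near 0.181 and 0.195, and DHCR7 is nearest to the median.

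The order from high to low was HMGCS1, IDI1, LSS, CYP51A1, SQLE, DHCR7, FDPS and MVD. The replicate values did not overlap in 26 of the 28 pairs of these genes, against 90.2% of all pairs of genes in the table, and the overlapping pairs were LSS with CYP51A1 and FDPS with MVD. No test between pairs of genes was run.

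Other enzymes from acetyl-CoA to cholesterol, and GGPS1 of a side branch, were taken from a list of 12, of which 11 have a TE. Of these, 9 were higher than the median and 2 were lower, with a median TE of 1.01. Of all genes, 44.7% passed as higher and 44.6% as lower. The 8 enzymes above had a median of 0.876, and all genes had 0.385. The highest was ACAT2, an acetyl-CoA acetyltransferase, with a mean of 4.02 ± 0.0220 (SD, n = 3).

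The 2 lower enzymes were MVK, the mevalonate kinase, and GGPS1, which makes geranylgeranyl diphosphate and is not on the way to cholesterol. The TE of MVK was 0.0730, 0.0758 and 0.0860, and that of GGPS1 was 0.127, 0.123 and 0.133. PMVK, the kinase that follows MVK, had a TE of 1.80, 2.30 and 3.21, and its replicates were the most spread of these enzymes.

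With both lists joined and split by step, a grouping made after the values were seen, the 4 enzymes below the median all fell among the 6 that lead from mevalonate to prenyl diphosphates (MVK, MVD, FDPS and GGPS1). That block had a median TE of 0.188 and ranged from 0.0783 to 2.55. ACAT2 and HMGCS1, which lie before mevalonate, were both higher, at 4.02 and 2.79. The 11 squalene and sterol enzymes with a TE were all higher, and they lay between 0.481 and 1.12, with a median of 1.01. Beside these counts, 44.7% of all genes passed as higher and 44.6% as lower.

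**Figure D2:**
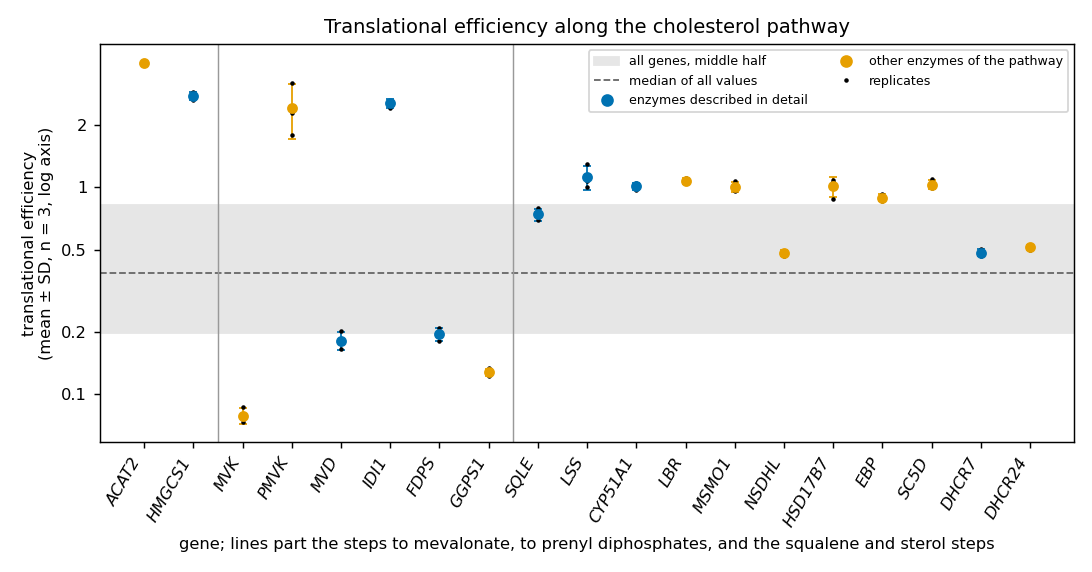
TE of 19 cholesterol pathway enzymes, with GGPS1 of a side branch among them, on a log axis, with mean ± SD (n = 3) and small points for replicates. Blue marks the enzymes described in detail and orange the others. Grey lines part the steps to mevalonate, to prenyl diphosphates, and the squalene and sterol steps. The 11 squalene and sterol enzymes lie between 0.481 and 1.12, while the middle block reaches from 0.0783 (MVK) to 2.55 (IDI1).

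Genes of sterol sensing, uptake and transport had a lower median TE of 0.266, with 4 higher and 7 lower of the 11 with a TE. The highest was MBTPS2, a protease that cleaves SREBPs, at 2.50 ± 0.151 (SD, n = 3). The 5 fatty acid synthesis genes with a TE, which SREBPs also act on, had a median of 0.877 (4 higher, 1 lower). For comparison, 16 glycolytic enzymes had a median of 0.609, with 11 higher, 4 lower and 1 that did not pass.

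The second deposited measure, ribosome occupancy, is the authors' in-frame RPF count at each codon, scaled to library size and divided by the abundance of the mRNA. The replicates were combined by the authors, so no SD or n can be given. Each value of a transcript was a whole-number sum of 3 amounts, the worth of 1 read in each combined replicate. All 8765 values of the 9 enzymes were resolved into 158651 reads in this way, exactly to the digits of the table. Which amount belongs to which replicate cannot be told, so the 3 sets of reads are used only to give a range. Each set supplied between 30.7% and 35.2% of the CDS occupancy of a gene.

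HMGCS1 had the highest mean CDS occupancy, 0.323 per codon, at percentile 98.0 of all transcripts and with 47927 CDS reads. FDFT1 came next with 0.128 (26838 reads), followed by IDI1 with 0.116 (9136 reads) and DHCR7 with 0.0777 (13058 reads). Counted from codon 58, a choice made after the data were seen, IDI1 had 0.144 and lay above FDFT1. The median of all transcripts was 0.0450.

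CYP51A1 had a mean of 0.0574 (19592 reads) and SQLE 0.0558 (22676 reads). FDPS had 0.0374 (9709 reads), LSS 0.0348 (6497 reads) and MVD 0.0245 (1045 reads), all below the median transcript. MVD was thus lowest and HMGCS1 highest on both measures, which rest on the same RPF and total RNA libraries.

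LSS was placed differently by the 2 measures, with a mean TE above that of 5 of the other enzymes and an occupancy above that of MVD only. Its ratio of TE to occupancy was 4.18 times that of the median gene, higher than in 96.4% of the 6912 genes in both tables. The same ratio was 2.84 in IDI1, 2.29 in CYP51A1 and 1.72 in SQLE. That of IDI1 uses the mean over its whole CDS, and the higher mean from codon 58 would lower it. It was 1.12 in HMGCS1, 0.960 in MVD, 0.805 in DHCR7 and 0.675 in FDPS.

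The worth of a read also gives each mRNA's abundance relative to the median transcript, on the length-corrected scale of TPM. FDPS was the most abundant at 11.6 times the median, followed by CYP51A1 at 9.41, SQLE at 7.93 and FDFT1 at 6.61. DHCR7 was at 3.92, HMGCS1 at 3.21, IDI1 at 3.09, LSS at 2.86 and MVD at 1.20. The range of IDI1 over the 3 sets of reads, 2.81 to 3.43, overlapped those of HMGCS1 (2.93 to 3.55) and LSS (2.85 to 2.88). The place of IDI1 beside these genes is thus not settled. The worth of a read was compared between transcripts by its rank, since the replicate it belongs to is unknown. FDPS thus combined the most abundant mRNA of the 9 with a TE near that of MVD. Abundance and TE both draw on the total RNA libraries, so they are not independent.

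Some of these CDS share sequence with other genes. Of all stretches of 30 bases in the CDS, 66.1% occur in the pseudogenes of CYP51A1, 25.2% of those of FDPS occur in other genes, and the share was 13.8% in IDI1 and 2.35% in HMGCS1. It was 0 in the other 5 genes. The sources used here do not state how reads that fit several genes were treated, and the values of CYP51A1 and FDPS are uncertain to that extent. IDI1 also overlaps an antisense gene, IDI2-AS1, and the strand setting of the counting is not given.

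**Figure D3:**
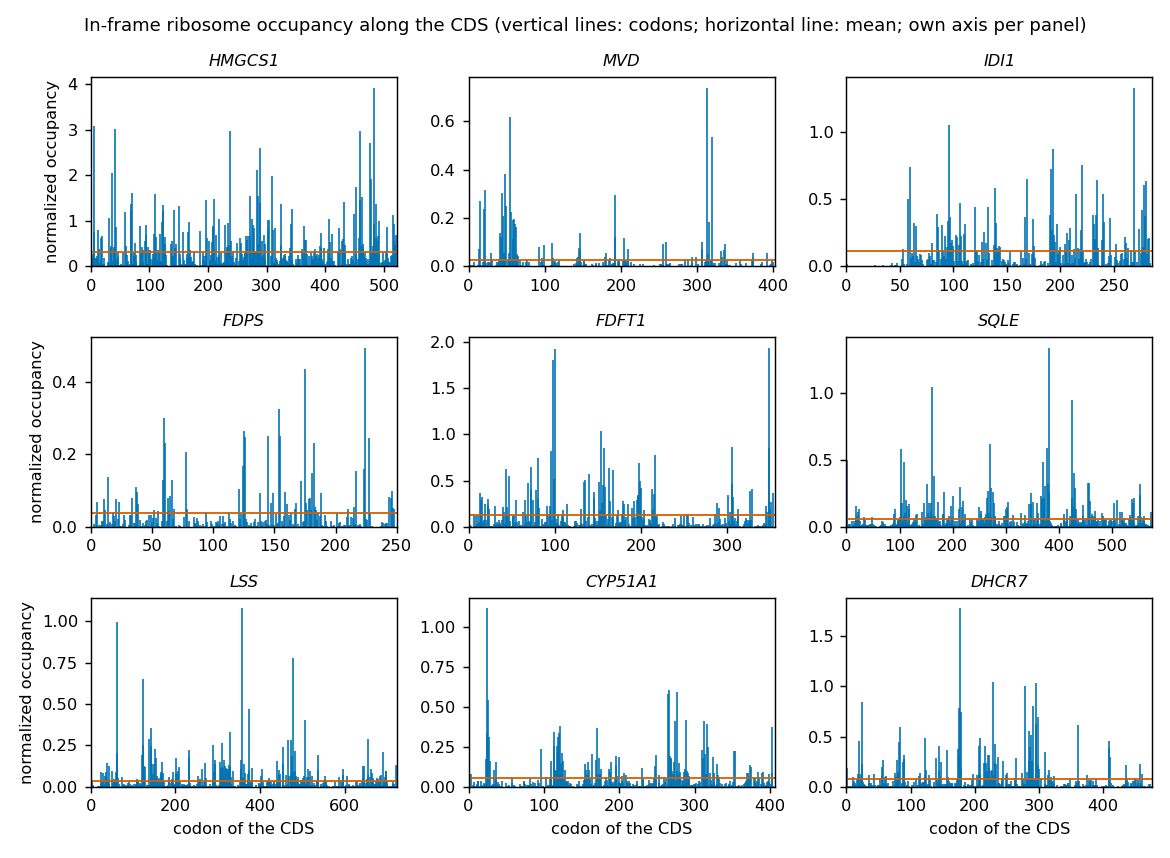
Normalized in-frame occupancy (vertical lines) at each codon of the CDS of the 9 enzymes, from the authors' combined replicates, with the mean of the CDS as an orange line and a separate vertical scale in each panel. IDI1 is almost empty before codon 58, MVD is densest in its first 75 codons, and single codons reach 30.2 times the mean in MVD and 31.0 times in LSS.

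In IDI1 the reads began inside the CDS of the table. Codons 1 to 57 held 97 reads, with a mean occupancy of 0.00613, and 43 of these 57 codons were at 0. From codon 58 onwards there were 9039 reads and the mean was 0.144. The ratio of the stretches was 0.0426, and between 0.0362 and 0.0468 in the 3 sets of reads.

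Codon 58, the second ATG shown above, had an occupancy of 0.501, and codon 59 had 0.743. Codon 57, the ATG before it, had 0.0142, and codon 1 held 5 reads. Of the 97 reads upstream, 61 lay in codons 52 to 57 and 36 in the 51 codons before these.

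The first 75 codons of the IDI1 CDS had 0.242 times the occupancy of the last 75, at percentile 8.83 of all transcripts. The ratio was 0.0175 with windows of 50 codons, which end before codon 58, and 0.383 without the first 15 and the last 5 codons. Counted from codon 58, a choice made after the data were seen, the ratio was 0.935. TE is given per gene and was not split by start site.

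**Figure D4:**
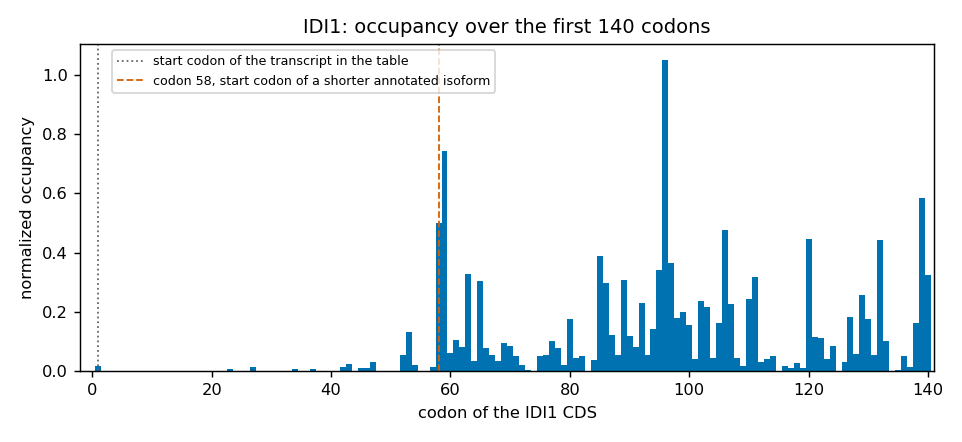
Normalized occupancy at each of the first 140 codons of the IDI1 CDS, with the start codon of the table (dotted line) and codon 58, the start codon of a shorter annotated isoform (dashed line). Occupancy is near 0 up to codon 51, and it reaches 0.501 at codon 58 and 0.743 at codon 59.

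In MVD the first to last ratio went the other way. Its first 75 codons held 501 reads and its last 75 held 71, a ratio of 7.07 in occupancy that was higher than in 97.5% of transcripts. In the 3 sets of reads the ratio lay between 6.44 and 7.65. The decline was not steady, since 3 equal stretches of codons held 53.6%, 19.0% and 27.4% of the occupancy, from first to last. Codons 313 and 320, with 7.52% and 5.45% of it, lie outside both windows. MVD also had the fewest reads of the 9, and 231 of its 401 codons were at 0.

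The ratio was 1.55 in DHCR7, 1.35 in CYP51A1 and 1.34 in LSS, and 0.947 in FDFT1, 0.785 in FDPS, 0.724 in HMGCS1 and 0.561 in SQLE. The median of all transcripts was 0.980. Without the first 15 and the last 5 codons the ratio of DHCR7 was 2.42. In DHCR7 the middle of the CDS was densest, with 57.0% of the occupancy in the middle of 3 equal stretches of codons and 13.4% in the last.

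The start codon itself was also unequal. In SQLE it held 338 reads and 8.88 times the mean of the CDS, and the ratio was 4.12 in LSS, 2.40 in DHCR7 and 1.94 in MVD. It was 0.807 in HMGCS1, 0.170 in FDFT1 and 0.154 in IDI1. In FDPS and CYP51A1, whose start codons are shown above, it held 0 reads, as it did in 40.3% of all transcripts. The median transcript had a ratio of 0.286.

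In-frame occupancy per codon in the 5′UTR was 11.9% of that in the CDS in SQLE (percentile 75.2 of all transcripts), 8.42% in DHCR7 (percentile 68.5) and 7.68% in CYP51A1 (percentile 66.9). The other 6 enzymes lay between 0.363% and 2.96%, and the median of all transcripts was 2.86%. Over the last 17 codons of the 5′UTR the value was 62.1% in SQLE (percentile 92.5), 32.4% in DHCR7 (percentile 85.8) and 16.2% in CYP51A1 (percentile 75.3). In SQLE this stretch includes the highest codons of the 5′UTR, 3 and 1 before the ATG. The median over the transcripts with a 5′UTR of at least 17 codons was 2.86%. Reads in the other frames are not part of this measure, so the 5′UTR reads counted below are in-frame reads only.

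In SQLE the 5′UTR held 1437 reads, or 5.96% of the reads of the transcript (95% Wilson interval 5.67% to 6.27%, counting error only), in 126 of 305 codons. The highest were the codons 3 and 1 before the ATG, with occupancies of 0.266 and 0.235, or 4.78 and 4.21 times the CDS mean. The nearest in-frame stop codon was 56 codons upstream, and 731 of the reads lay between it and the ATG, a stretch without an in-frame ATG.

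DHCR7 had 1.38% of its reads in the 5′UTR (95% Wilson interval 1.20% to 1.60%), CYP51A1 had 1.17% (1.03% to 1.33%) and FDPS had 108 reads there (0.912% to 1.33%). The other 5 genes had at most 0.249%. In DHCR7 the nearest in-frame stop codon was 27 codons upstream, and 152 of 183 reads lay between it and the ATG. The highest occupancy there, 0.135, was at 12 codons before the ATG.

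In FDPS, 100 of 108 of the 5′UTR reads lay in codons that belong to the CDS of other annotated isoforms. The count was 200 of 232 in CYP51A1 and 66 of 66 compared in FDFT1, but 2 of 1435 compared in SQLE and 0 of 183 in DHCR7. The exons of the 5′UTR were taken from GENCODE transcripts of the same CDS length, whose 5′UTR lengths differ from those of the table.

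**Figure D5:**
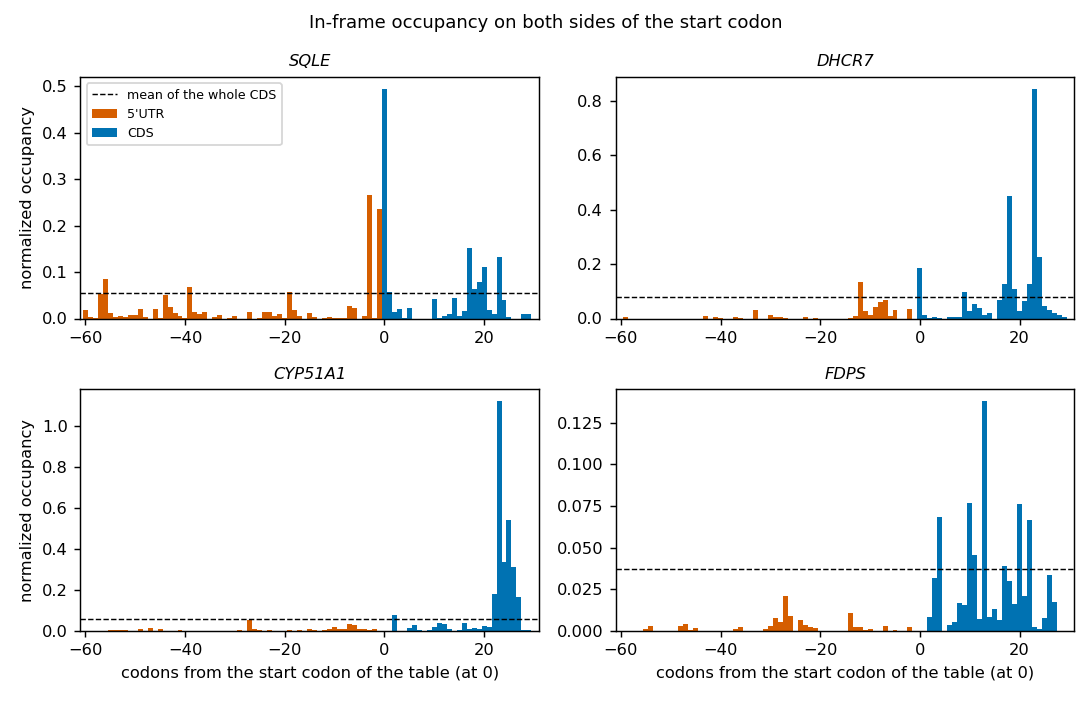
Normalized in-frame occupancy from 60 codons before to 30 codons into the CDS of SQLE, DHCR7, CYP51A1 and FDPS, with the 5′UTR in orange, the CDS in blue, the CDS mean as a dashed line and the start codon of the table at 0. SQLE has a high start codon (8.88 times the mean) flanked by high 5′UTR codons, while CYP51A1 and FDPS have no reads at the start codon.

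The 3′UTR held 62 reads in IDI1, 6 in CYP51A1, 2 in FDFT1 and 1 each in MVD and FDPS. It held 0 in HMGCS1, SQLE, LSS and DHCR7, which allows a share of reads of up to 0.00625%, 0.0124%, 0.0462% and 0.0227%, respectively. The stop codon was at 0 in all 9 genes, as it was in 9044 of the 9570 transcripts.

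The highest codon of each CDS held between 2.33% (HMGCS1) and 7.52% (MVD) of its occupancy. The windows below show the highest codon of 6 enzymes in capitals, within 30 bases of the mRNA, so that the sequence under each peak of reads can be seen.
HMGCS1, codon 484: ggagtaggacttGTGcattcaaacatagca
MVD, codon 313: aatgccgtgatcTTCaccctggacgacact
IDI1, codon 269: tggtgggataacTTAaatcatttgaatcag
FDPS, codon 224: attatggctctcATTgaacagtacgcagca
CYP51A1, codon 24: aatagtaaaaatGAAgacctgaatgcagaa
DHCR7, codon 177: atcttcgacaacTGGatcccactgctgtgg
On GRCh37 they lie at chr5:43292582-43292611, chr16:88721159-88721188, chr10:1087160-1087189, chr1:155290311-155290340, chr7:91758260-91758289 and chr11:71152353-71152382, on the strand of each gene. No codon is capitalised in more than 1 of the 6 windows. Outside these windows, GCT was the codon at 2 further peaks, codon 320 of MVD (21.8 times the mean) and codon 477 of LSS (22.4 times).

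The highest codon of LSS, codon 357 (chr21:47633657-47633659, with an exon junction in its window of 30 bases), had 31.0 times the mean of its CDS with 286 reads. That of MVD had 30.2 times the mean, but with 76 reads only. SQLE reached 24.0 times at codon 381 (917 reads) and DHCR7 22.9 times at codon 177 (630 reads). The median transcript had a highest codon of 21.0 times its mean.

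CYP51A1 reached 19.5 times, FDFT1 15.1 times (codon 349), FDPS 13.2 times, HMGCS1 12.1 times and IDI1 11.4 times. A further 4 codons exceeded 20 times the mean, at codons 55 and 320 of MVD and codons 62 and 477 of LSS. HMGCS1 and IDI1, with the highest TE, had the lowest peaks relative to the mean. FDPS came next, though its TE was only 0.195, and a relation of TE to peak height was not tested. MVD, with the fewest reads, and LSS had the highest, and the part of read number in these heights was not tested.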

How the data were processed

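Per the labels, HEK293 cells with control siRNA gave 3 RPF and 3 total RNA libraries, depleted of rRNA; the submitters' processing notes list cutadapt 1.16, Bowtie 1.1.2, TopHat2 2.1.1, HTSeq 0.9.1 and hg19, while the study's methods name Hisat2 for total RNA. The authors deposited TE as a ratio, RPFs over total RNA, within each replicate number (formula: not given in the sources used here), and occupancy as in-frame RPF counts per codon, normalized for library size, divided by TPM and combined over replicates. Library totals are not in these files, so the depth behind a TE is unknown. RPF and total RNA are matched within the ratio, and replicates correlated at 0.987 to 0.990 on the log2 scale over genes. TE was tested with limma 3.58.1 (R 4.3.3) on log2(value + 0.01) minus the median of all values, with an intercept only and Benjamini-Hochberg adjustment over 8121 genes at an FDR of 0.05. For whole reads, 3 step sizes were sought among the smallest values of a transcript and found in 9456 transcripts. In simulated data, limma called 180 of 200 genes moved by a log2 of 1, and 8 unmoved genes. The step sizes were found in 34 of 40 simulated transcripts, and all values of those gave exact reads. Windows were 75 codons. Transcripts were matched to GENCODE 44 on GRCh37 by symbol and CDS length. The named genes were the 9 enzymes and fixed lists, from which 2 genes are not reported here and were left out of counts and medians, with the highest codon of each CDS and any over 20 times its mean. The members and lists were chosen with earlier results of these data known.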

Additional observations from a re-analysis of the deposited data

How the results depend on the processing

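In all 56 fits of the 8 enzymes under other settings (a pseudocount of 0.1, a minimum mean TE of 0.05, each replicate left out, the replicate block, and the genes of both tables), direction and side of the threshold were kept, with adjusted p from 7.26e-07 to 0.0127 (limma). With the replicate block, the median of each replicate removed, 7265 genes passed against 7249, and all 8 enzymes did. Leaving out a replicate gave 7015 to 7091 genes, of which 3528 to 3552 higher and 3470 to 3539 lower, 8 enzymes each time, an HMGCS1 to MVD ratio of 14.7 to 15.9, and 26 to 28 pairs without overlap.

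Occupancy depended more on its definition. The median over the 9 enzymes fell from a mean of 0.0574 per codon to 0.0185 with the median over codons, and was 0.0585 without the first 15 and the last 5 codons. The first to last ratio, 0.947, was 0.808 with windows of 50 codons, 1.13 without the first 15 and the last 5 codons, and 1.02 without the highest codon of each window. LSS crossed 1 under the first of these and FDFT1 under the other two; the cause was not tested. The 5′UTR occupancy per codon, 2.26% of that of the CDS, was 3.55% over the last 17 codons; it moved from 11.9% to 62.1% in SQLE, from 8.42% to 32.4% in DHCR7, from 7.68% to 16.2% in CYP51A1, from 1.26% to 4.74% in FDFT1, from 1.20% to 3.55% in HMGCS1, from 0.363% to 1.20% in IDI1 and from 2.26% to 3.52% in FDPS. The IDI1 first to last ratio moved from 0.242 to 0.0175 with windows of 50 codons. Combined replicates leave these values without an error.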
